A study of Mus musculus with 26 samples.

Results

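Luminal-basal cells of Snai2-null mammary glands were compared with luminal cells of the same glands at 12 months of age. The comparison holds 4 libraries, of 26 in the series: A5_S and A6_LB as luminal-basal, A5_L and A6_L as luminal. A5 and A6 name pools of cells from 3 mice each. Library A5_S is labelled stromal and A5_LB luminal-basal, and the 2 labels were treated as exchanged. A5_S was chosen by measured values, as it carries Krt14 and little Col1a1 and A5_LB the reverse. The counts over all genes and over most of the gene lists described are therefore also given for A6_LB alone, with both A5 libraries in question left out. Of 87 named genes called, 21 were not called with A6_LB alone.

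All mice were of the B6.129S1 strain. The null animals were Snai2-LacZ/LacZ, so both fractions compared carry the LacZ allele and lack Snai2, and the gland as a whole, not only one cell type, is mutant. Fractions were sorted by flow cytometry on the surface proteins EpCAM and CD49f from glands that had been minced and stored in freezing medium. As reference, 2 other comparisons were used: null luminal-basal over luminal at 3 months (F82_LB, F84_LB, F82_L and F84_L) and wild-type basal over luminal at 12 months (A1_B, A2_B, A1_L and A2_L). RNA-seq gave gene counts, and p-values measure the spread between pools, each fraction of a pool being 1 library.

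The mammary duct has an inner layer of luminal cells, which bear keratins such as Krt8, Krt18 and Krt19, and an outer basal or myoepithelial layer, which bears Krt5 and Krt14, the transcription factor Trp63 and smooth-muscle proteins that squeeze out milk. Part of the luminal layer senses oestrogen and progesterone and signals to its neighbours, and another part makes milk. Snai2 (Slug) is a zinc-finger repressor that binds E-box sequences, is found in basal cells, and is best known from the epithelial-mesenchymal transition, the loss of epithelial junctions for a motile state.

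The 4 libraries held 4961691 to 6511920 counts. A6_LB had fewer detected genes, 14756 against 17939 to 18396 in the other 3 libraries. Mitochondrial ribosomal RNA took 22.8% to 33.9% of counts. Snai2 had 0 counts in all 4 libraries, where 3 counts would be 0.482 to 0.576 CPM (counts scaled to a library size of 1e+06), while the wild-type 12-month basal libraries held 192 and 384 counts. In log2 CPM over all genes, A5_S correlated at r = 0.874 with A6_LB and at 0.802 with A6_S, and A5_LB at 0.946 with A6_S and at 0.791 with A6_LB. These correlations are across genes, which are not replicates, and are given as a description.

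The values behind the choice are the marker levels, given here without a test. Krt14 stood at 1025 CPM in A5_S and 719 CPM in A6_LB, against 38.1 CPM in A5_L and 47.6 CPM in A6_L. In A5_LB it was 34.8 CPM and in A6_S 40.6 CPM. Col1a1, the main fibroblast collagen, was 23.9 CPM in A5_S and 20.2 CPM in A6_LB but 1218 CPM in A5_LB and 783 CPM in A6_S. A5_S therefore lay beside A6_LB, and A5_LB beside the stromal library A6_S, in both genes.

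Krt5, the keratin partner of Krt14, was 1411 CPM in A5_S and 1918 CPM in A6_LB, and 57.4 and 77.3 CPM in the luminal libraries. Krt18, a keratin of simple epithelium, was 78.5 and 109 CPM in A5_S and A6_LB, and 539 and 523 CPM in A5_L and A6_L. Krt18 was thus lower in the luminal-basal libraries without being lost, and both defining basal keratins were present in each of them. The 3 markers were also found together in the wild-type basal libraries A1_B and A2_B, where Krt18 was 188 and 158 CPM, so their co-occurrence is not particular to the luminal-basal libraries. In sorted pools they may lie in the same cells or in different ones.

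**Figure D1:**
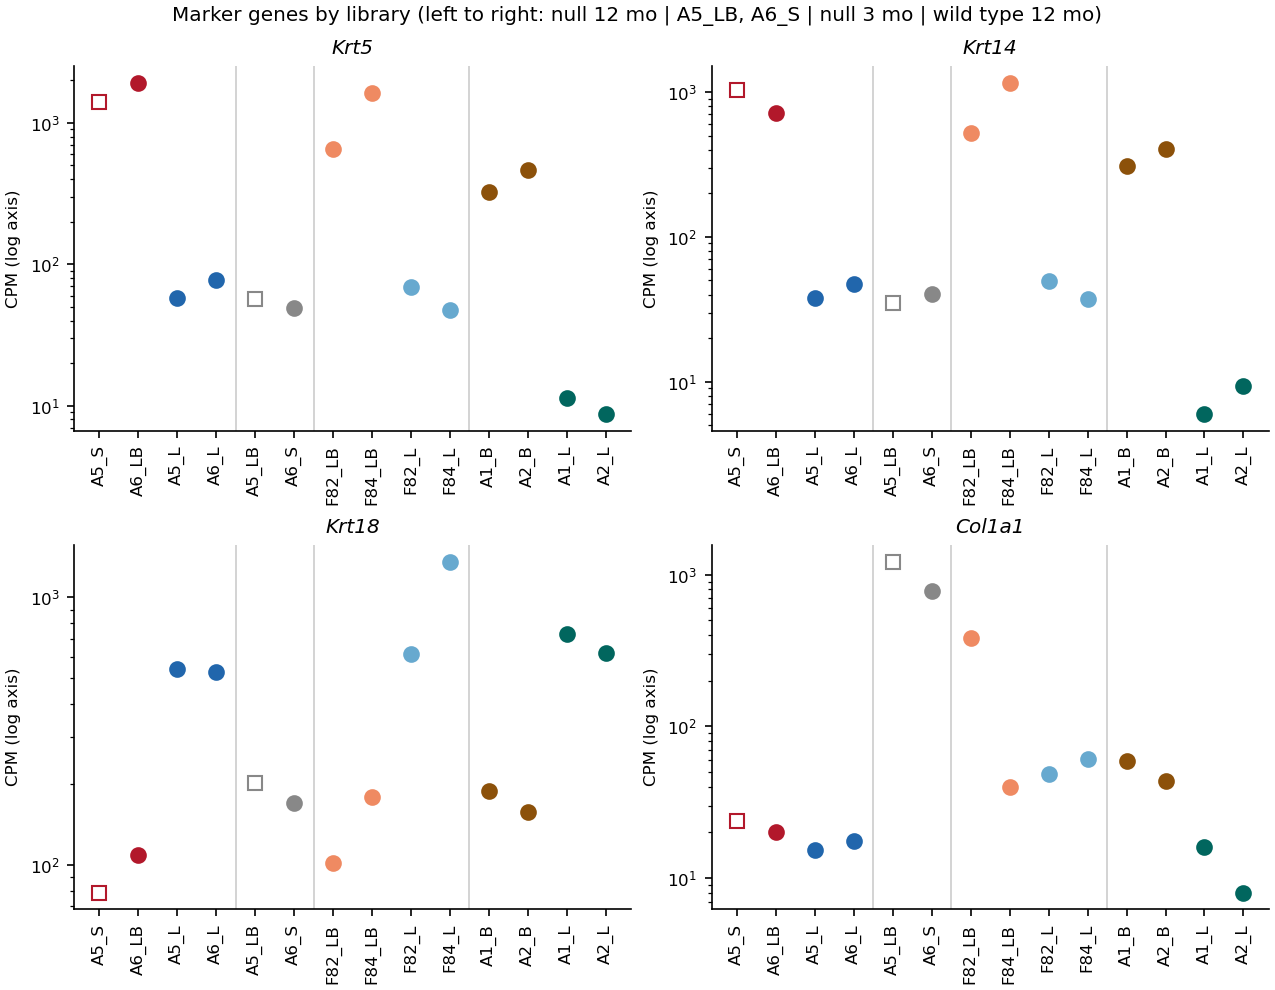
CPM (log axis) of Krt5, Krt14, Krt18 and Col1a1 in 14 libraries, 1 point each. Open squares are the A5 libraries with exchanged labels, red null 12-month luminal-basal, blue null 12-month luminal, grey stromal, orange and pale blue the null 3-month luminal-basal and luminal libraries, and brown and green wild-type 12-month basal and luminal libraries. A5_S sits with A6_LB in all 4 panels, and Col1a1 in F82_LB (380 CPM) stands apart from F84_LB.

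Over all 15917 genes tested, 1042 were higher in luminal-basal cells (6.55%) and 724 lower (4.55%) at an adjusted p under 0.05 (edgeR's quasi-likelihood test with the pool as a block). With A6_LB alone, 940 of 17234 genes were higher (5.45%) and 732 lower (4.25%). The 2 fits shared 682 higher genes, 65.5% of the first list and 72.6% of the second, and 358 lower genes, 49.4% and 48.9%. The counts moved with single libraries: 649 genes in all were called without A6_L and 866 without A5_L, against 1766 (11.1%) with all 4, 1841 without A5_S and 1195 without A6_LB. Under the deposited labels 304 genes were called.

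Among genes of at least 10 CPM whose libraries did not overlap, as those of 22.3% (higher) and 27.5% (lower) of all genes did not, the 8 largest rises were Slc27a6, Ctcflos, Gprin3, Lpo, Dsg3, Tmem88b, Hpse2 and Slc8a1. Gprin3 (chr6:59347226-59426294, minus strand, GRCm38), named for its link to neurite outgrowth, was 42.7 and 33.8 CPM in A5_S and A6_LB, and 0.171 and 0.574 CPM in A5_L and A6_L. It rose by 6.62 ± 1.04 on the log2 scale (SE, n = 2 pools, edgeR adjusted p = 0.000384) and by 6.30 with A6_LB alone (adjusted p = 0.00428). Slc8a1, a sodium-calcium exchanger of excitable cells, was 27.0 and 17.3 CPM against 0.512 and 0.191 CPM, a log2 rise of 5.94 ± 1.02 (edgeR adjusted p = 0.00084).

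Slc27a6, a fatty acid transport protein, had 11.6 and 9.02 CPM in the luminal-basal libraries and no count in either luminal library. With a floor of 3 counts over the luminal group, it was at least 38.4-fold higher. Tmem88b, a membrane protein, was 71.4 and 42.4 CPM against 0.854 and 0.957 CPM. The 4 genes Slc27a6, Gprin3, Tmem88b and Slc8a1 were called whichever of the 4 libraries was left out, and with A6_LB alone.

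The other rises were uneven between the pools. Ctcflos, annotated antisense, was 1.61 CPM in A5_S and 110 CPM in A6_LB, with 2 counts over the luminal libraries, and its ratio was 281 (95% interval 77.6 to 2329, counting error only). The strand setting of the counting is not given, so its reads cannot be told from those of an overlapping gene. Lpo, the milk enzyme lactoperoxidase, was 12.2 and 100.4 CPM against 0.342 and 0.574 CPM, and Dsg3, a desmosomal cadherin of stratified epithelia, was 3.05 and 74.5 CPM against 0 and 0.957 CPM. Both were higher in A6_LB than in A5_S. Without A6_LB, edgeR's adjusted p was 0.461 for Ctcflos, 0.111 for Lpo and 0.139 for Dsg3. Without A6_L it was 0.287, 0.149 and 0.12, and Ctcflos also lost its call without A5_L (adjusted p = 0.0607). Hpse2, a relative of heparanase, was 18.0 and 5.57 CPM against 0.342 and 0 CPM, a ratio of 68.3 (18.6 to 569), and was not called with A6_LB alone (edgeR adjusted p = 0.106), without A5_L (0.0832) or without A6_L (0.0922).

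The 8 largest falls were Muc16, Tenm1, Dpep2, Igha, Cyp3a57, R3hdml, Mdga2 and Slc44a4. Muc16, a cell-surface mucin, had no count in A5_S or A6_LB and 17.4 and 8.61 CPM in the luminal libraries, at least 50.6-fold lower against a floor of 3 counts over the group. Tenm1, a teneurin, also had no luminal-basal count against 14.9 and 8.23 CPM, at least 44.7-fold lower. Neither gene was detected in the fraction that carries Krt5 and Krt14.

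Cyp3a57, one of a family of similar cytochrome P450 genes whose reads may not be fully separated, had 1 count over both luminal-basal libraries against 13.5 and 27.2 CPM (ratio 228, 40.5 to 9052). Mdga2, a membrane-anchored adhesion protein, was 0.321 and 0.192 CPM against 83.2 and 16.6 CPM (ratio 198, 67.2 to 961), and Slc44a4, a choline transporter-like protein, 0.161 and 0 CPM against 15.4 and 15.7 CPM (ratio 178, 31.4 to 7054). Igha, the constant region of immunoglobulin A and a product of plasma cells, was 0.161 and 0.192 CPM against 20.7 and 96.0 CPM. The 10 immune genes tested summed to 80.4 and 107 CPM in A5_S and A6_LB and to 65.9 and 67.2 CPM in A5_L and A6_L, and their part in the Igha difference was not tested. Dpep2, a dipeptidase at 0 counts in both luminal-basal libraries, was not called with A6_LB alone (edgeR adjusted p = 0.139), nor without A5_L (0.0747), A5_S (0.118) or A6_L (0.0558).

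**Figure D2:**
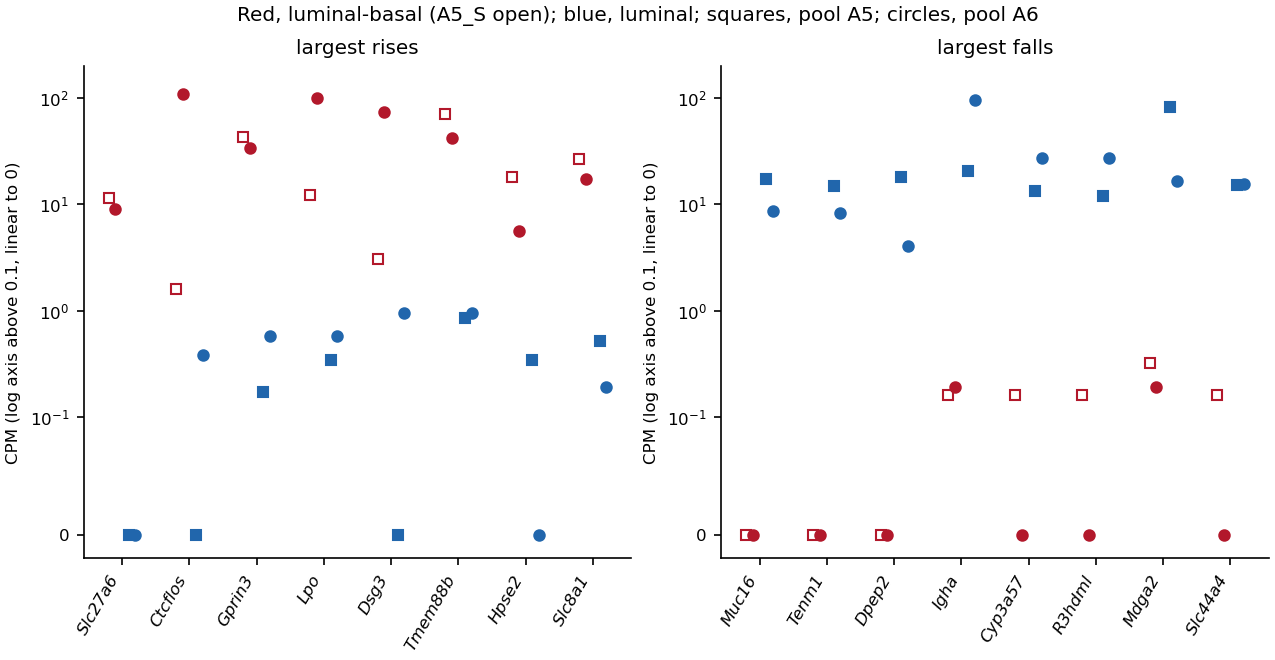
CPM of the 8 largest rises (left) and 8 largest falls (right) in the 4 libraries, on an axis that is logarithmic above 0.1 CPM and linear below it down to 0. Red marks luminal-basal libraries (A5_S open) and blue luminal ones, squares pool A5 and circles pool A6, and red and blue do not overlap for any gene, while Ctcflos spans 1.61 to 110 CPM between the 2 luminal-basal libraries.

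Genes of the basal layer were higher as a group. Of the 6 basal keratin and p63 genes, 5 were higher (Krt5, Krt14, Krt15, Krt17 and Trp63) and none lower, with a median log2 fold change of 4.19, beside -0.07 over all genes. The list holds the markers by which A5_S was chosen, so this count is a description. Trp63, the transcription factor that maintains basal cells, was 396 and 577 CPM in A5_S and A6_LB and 39.1 and 36.5 CPM in A5_L and A6_L. Krt17 was 371 and 259 CPM against 11.6 and 16.8 CPM. With A6_LB alone none of the 6 was called by edgeR, with a median log2 fold change of 3.41, and adjusted p was 0.0913 for Krt14, 0.0926 for Krt5, 0.0999 for Krt17 and 0.152 for Trp63. Without the pool block, an alternative chosen after seeing the data, A6_LB alone gave edgeR adjusted p = 0.0412 for Krt14 and 0.0426 for Krt5. With 1 library left out, adjusted p reached 0.0915 for Krt14 (without A6_L; 0.0902 without A5_L), 0.152 for Krt5 (without A6_L; 0.15 without A5_L and 0.0752 without A6_LB), 0.135 for Krt17 (without A5_L; 0.121 without A6_L and 0.0582 without A5_S) and 0.215 for Trp63 (without A6_L; 0.103 without A5_L, 0.0718 without A5_S and 0.0652 without A6_LB). Krt6a, the one not called, was 5.78 CPM in A5_S and 113 CPM in A6_LB, against 69.5 and 17.8 CPM.

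The contractile programme of myoepithelial cells had 12 of 13 genes higher and 1 lower (median log2 fold change 4.07), the largest share among the lists examined. Acta2, smooth-muscle actin (chr19:34241090-34255590, minus strand), was 3177 CPM in A5_S and 1661 CPM in A6_LB, against 100.4 CPM in A5_L and 86.7 CPM in A6_L. It rose by 4.64 ± 0.51 on the log2 scale (edgeR adjusted p = 2.45e-05) and by 4.31 with A6_LB alone (adjusted p = 0.0018). Tagln, an actin-binding protein, was 329 and 151 CPM against 9.56 and 9.37 CPM, and Myl9, a myosin light chain, 462 and 270 CPM against 21.5 and 20.7 CPM. All 3 were higher in A5_S than in A6_LB, and both luminal-basal values were above both luminal ones. With A6_LB alone, 10 of the 13 were higher and none lower (median 4.21).

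Des, the intermediate filament desmin of muscle and pericytes, was the exception, at 1.12 and 0.384 CPM against 6.15 and 3.83 CPM (log2 fold change -2.68 ± 0.73, edgeR adjusted p = 0.0223). It was not called with A6_LB alone (adjusted p = 0.0646), without A5_L (0.122), without A6_LB (0.157) or without A6_L (0.0732). In wild type the comparison went the other way, by 2.48.

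Of 15 genes for basal adhesion and hemidesmosomes, the anchors of basal cells to their basement membrane, 9 were higher and none lower (median log2 fold change 2.13), and 5 were higher with A6_LB alone. Lama3, a chain of laminin-332, was 680 and 558 CPM against 37.9 and 36.9 CPM, a log2 rise of 4.05 ± 0.60 (edgeR adjusted p = 0.000297). Cdh3, P-cadherin, was 208 and 104 CPM against 6.32 and 7.84 CPM. In both genes the 2 luminal libraries were close to each other and far below the luminal-basal ones.

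Basement membrane and matricellular genes followed, with 11 of 13 higher and none lower (median log2 fold change 2.97), and 10 higher with A6_LB alone. Postn, the matricellular protein periostin, was 1616 CPM in A5_S and 1340 CPM in A6_LB, and 128 and 91.1 CPM in A5_L and A6_L. It rose by 3.76 ± 0.34 (edgeR adjusted p = 4.39e-06) and by 3.78 with A6_LB alone. Col4a1, a chain of basement membrane collagen, was 340 and 191 CPM against 25.8 and 22.0 CPM, and Sparc, which binds collagen, 1399 and 857 CPM against 146 and 123 CPM.

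These matrix genes are also made by fibroblasts, so fibroblast markers are given beside them. Of 14 fibroblast genes 4 were higher, namely Col14a1, Mmp2, Fbn1 and Col5a1, and none lower (median 0.54), while the defining genes Col1a1, Col1a2, Col3a1, Dcn, Lum and Pdgfra were not called. With A6_LB alone 3 were higher and none lower (median 0.11). Col5a1 was not called there (edgeR adjusted p = 0.314), nor without A5_L (0.121), A5_S (0.227) or A6_L (0.279), and Fbn1 was not called without A6_L (0.0519). The list summed to 1194 and 796 CPM in A5_S and A6_LB and to 453 and 354 CPM in A5_L and A6_L, against 15438 CPM in A5_LB and 15148 CPM in A6_S. Col14a1 was 741 and 340 CPM against 35.5 and 21.8 CPM, a log2 rise of 4.20 ± 0.47 (edgeR adjusted p = 2.69e-05), and Mmp2, a gelatinase, 70.6 and 55.1 CPM against 8.88 and 7.27 CPM. The part of fibroblast RNA in the matrix genes was not tested.

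**Figure D3:**
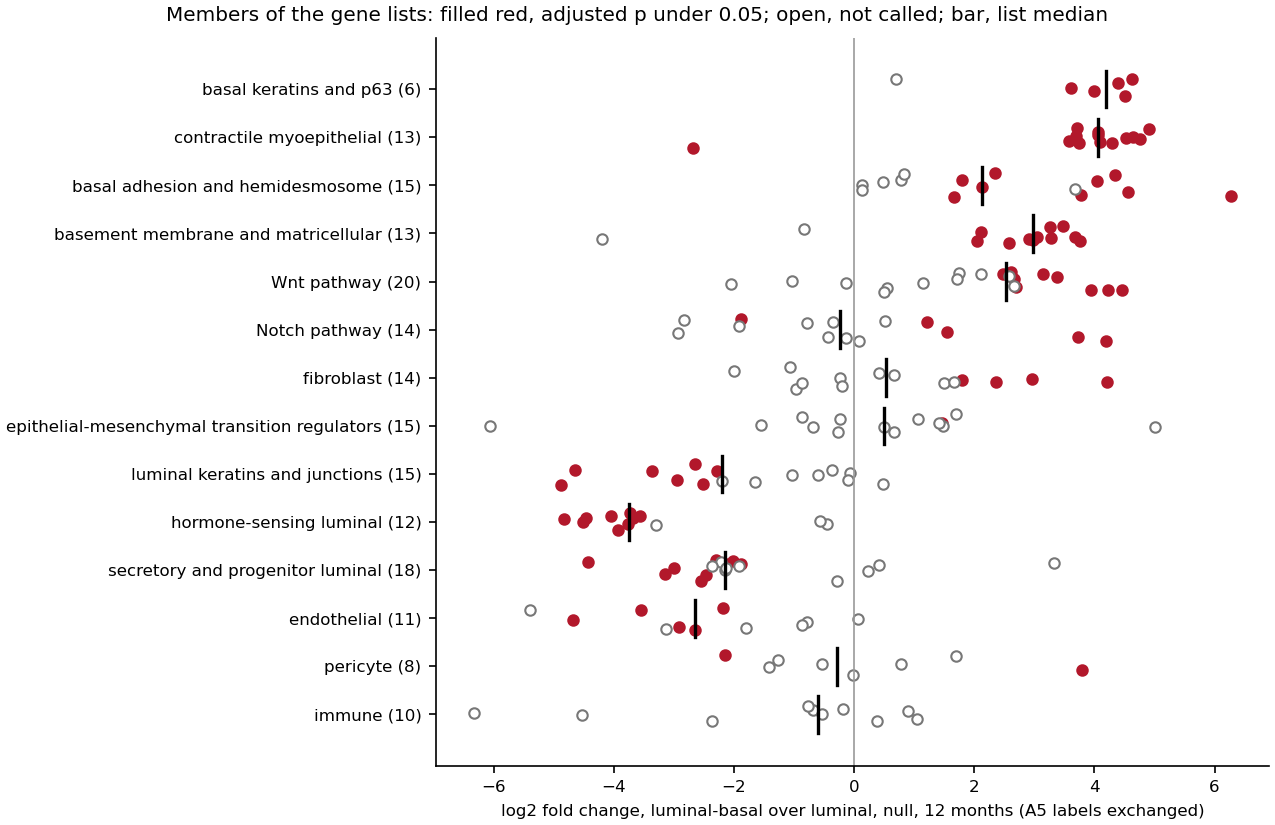
Fitted log2 fold change (luminal-basal over luminal, null, 12 months) of each tested member of 14 gene lists, with the number tested in brackets. Filled red points passed the test, open points did not, and the bar is the list's median, which is 4.07 for the contractile list and -3.74 for the hormone-sensing list.

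Luminal genes were lower, most evenly those of the hormone-sensing cells. Of 12 hormone-sensing genes 9 were lower and none higher (median log2 fold change -3.74), and the same number, 9, were lower with A6_LB alone (median -3.64). In a sorted pool, fewer cells of this type and less RNA per cell cannot be told apart. Prlr, the prolactin receptor (chr15:10177238-10349180, plus strand), was 50.7 CPM in A5_S and 217 CPM in A6_LB, against 3592 CPM in A5_L and 2645 CPM in A6_L. It fell by 4.51 on the log2 scale (SE 0.70, edgeR adjusted p = 0.000407).

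The receptors and their pioneer factor moved with it. Esr1, the oestrogen receptor, was 9.63 and 10.7 CPM against 139 and 176 CPM, and Pgr, the progesterone receptor, 24.6 and 38.6 CPM against 339 and 409 CPM. Foxa1, which opens chromatin for the oestrogen receptor, was 3.85 and 7.10 CPM against 111 and 129 CPM, a log2 fold change of -4.46 ± 0.60 (edgeR adjusted p = 9.42e-05). Their paracrine products Areg and Wnt4 were lower too, Areg at 9.79 and 16.1 CPM against 142 and 207 CPM and Wnt4 at 9.95 and 5.37 CPM against 110 and 82.3 CPM. Ly6a, the Sca-1 antigen of hormone-sensing cells, was 4.49 and 2.11 CPM against 124 and 68.3 CPM (log2 fold change -4.84 ± 0.67, edgeR adjusted p = 0.000147). Ly6a was not particular to luminal libraries, at 248 CPM in A5_LB and 200 CPM in A6_S. It was 192 and 209 CPM in the null basal libraries A5_B and A6_B. All these genes were called whichever of the 4 libraries was left out.

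Among 15 luminal keratin and junction genes 7 were lower and none higher (median -2.19), and 5 were lower with A6_LB alone. Krt7 was 4.82 and 2.30 CPM against 109 and 69.5 CPM, a log2 fold change of -4.65 ± 0.65 (edgeR adjusted p = 0.000172). Krt19 was 85.4 and 78.9 CPM against 908 and 789 CPM. Krt8 was 80.7 and 77.7 CPM against 442 and 347 CPM (edgeR adjusted p = 0.0102). Its call was lost whichever of the 4 libraries was left out, with log2 fold changes of -2.80 to -1.93. Prom1 (CD133) was 5.62 and 0.96 CPM against 131 and 60.1 CPM. Epcam, the sorting antigen, was 677 and 713 CPM against 993 and 810 CPM (log2 fold change -0.37 ± 0.41), and Cdh1, E-cadherin of the adherens junction, 397 and 558 CPM against 582 and 416 CPM (-0.06 ± 0.45). Neither was called, and the Cdh1 libraries overlapped. Both were chosen after their values were seen. Of the 3 claudins of tight junctions, Cldn3 was lower and Cldn4 and Cldn7 were not called.

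Snai2 binds the E-box CAGGTG. The 4 promoters below were picked because they hold it, to show its place in genes that rose (Krt5), fell (Pgr and Areg) or were not called (Epcam). The windows are the 250 bases before the start in RefSeq (GRCm38.p6), 5′ to 3′, with CAGGTG or its reverse complement CACCTG in capitals.
Krt5 (chr15:101712906-101713155, minus strand): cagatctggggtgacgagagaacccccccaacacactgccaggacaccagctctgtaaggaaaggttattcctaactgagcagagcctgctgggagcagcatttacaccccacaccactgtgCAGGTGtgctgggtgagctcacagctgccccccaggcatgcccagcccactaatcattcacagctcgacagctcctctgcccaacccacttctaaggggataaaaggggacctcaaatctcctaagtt
Pgr (chr9:8899583-8899832, plus strand): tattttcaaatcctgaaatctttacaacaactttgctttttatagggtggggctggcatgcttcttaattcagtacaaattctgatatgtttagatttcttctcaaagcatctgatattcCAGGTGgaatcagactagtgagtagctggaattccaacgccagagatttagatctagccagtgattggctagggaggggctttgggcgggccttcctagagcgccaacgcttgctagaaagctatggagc
Areg (chr5:91139349-91139598, plus strand): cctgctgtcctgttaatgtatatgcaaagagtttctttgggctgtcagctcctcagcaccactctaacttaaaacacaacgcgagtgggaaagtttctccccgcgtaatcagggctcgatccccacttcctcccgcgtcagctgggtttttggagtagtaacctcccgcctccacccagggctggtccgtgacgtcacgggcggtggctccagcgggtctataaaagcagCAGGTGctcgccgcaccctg
Epcam (chr17:87635729-87635978, plus strand): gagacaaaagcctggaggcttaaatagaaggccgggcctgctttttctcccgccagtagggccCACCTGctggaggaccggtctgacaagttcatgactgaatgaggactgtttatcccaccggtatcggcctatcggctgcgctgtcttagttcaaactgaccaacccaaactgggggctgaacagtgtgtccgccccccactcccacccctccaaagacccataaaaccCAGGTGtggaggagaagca
The motif begins 128 bases before the start in Krt5, 130 in Pgr and 20 in Areg, and occurs at 187 and 19 bases in Epcam. It was found in genes of every outcome. Of all 32851 promoters of this length 17.2% hold it on either strand. Of the 10 hormone-sensing genes with an entry 4 do, counting only the first listed promoter of each gene. A second promoter of Prlr (chr15:10223656-10223905, plus strand) also holds it, 57 bases before the start. The 17.2% counts all promoters and not 1 per gene, so it is no reference for this count. By first listed promoter, 1686 of the 10812 tested genes with an entry held the motif (15.6%). So did 107 of 730 called higher (14.7%) and 89 of 497 called lower (17.9%). Entries were found for 67.9% of the genes tested, 70.1% of those called higher and 68.6% of those called lower. These counts therefore cover only genes with an entry, and a share over all genes of a set is void. For the luminal keratin and junction list only 11 of 15 genes had an entry (73.3%) and for the basal keratin list 2 of 6. By first listed promoter, 9 of those 11 and 1 of those 2 held the motif. So did 4 of 7 basal adhesion genes and 1 of 10 contractile genes with an entry. Every list, the hormone-sensing one included, lacked entries, so a share for any of them is void. A match describes letters and no binding was measured.

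Milk-protein and progenitor genes of the luminal layer were lower less evenly, with 9 of 18 lower and none higher (median -2.14), and 2 lower with A6_LB alone. Trf, transferrin, was 19.3 and 14.6 CPM against 98.4 and 48.0 CPM (log2 fold change -2.02 ± 0.39, edgeR adjusted p = 0.00207). Csn2, beta-casein, was 9.79 CPM in A5_S, 1196 CPM in A6_LB, 219 CPM in A5_L and 1916 CPM in A6_L, so pool A6 was high in both fractions and the gene was not called (-2.13 ± 0.82). Ltf, lactoferrin, was 4.01 and 4.61 CPM against 123 and 63.1 CPM. Its call (edgeR adjusted p = 0.00134) was lost with A6_LB alone (0.0625), without A5_L (0.0547), without A5_S (0.0541) and without A6_LB (0.0563).

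**Figure D4:**
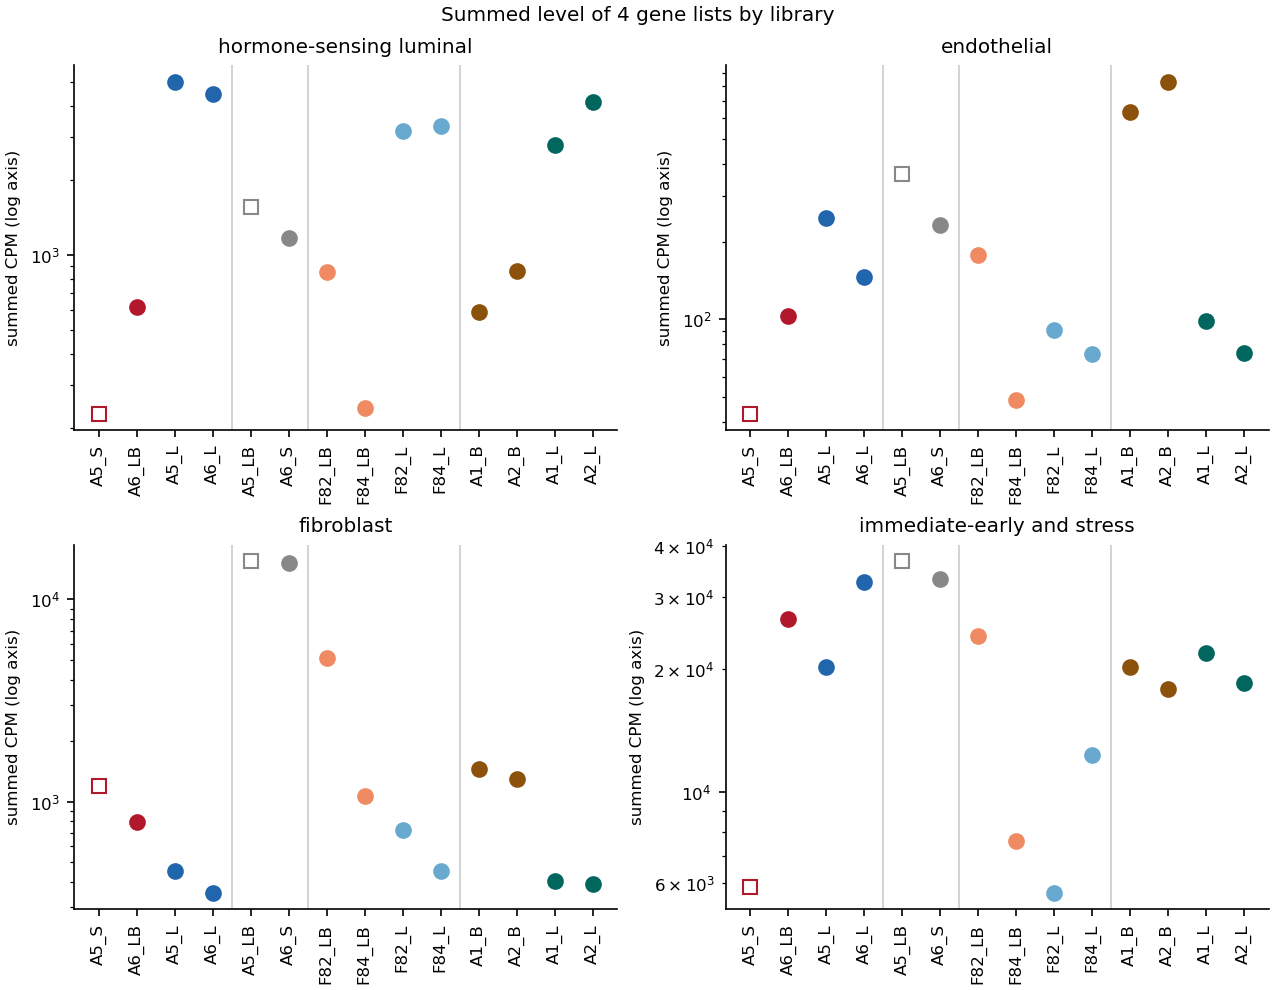
Summed CPM (log axis) of the hormone-sensing luminal, endothelial, fibroblast, and immediate-early and stress lists in 14 libraries, with symbols as in the plot of marker genes. The hormone-sensing sum is 229 and 615 CPM in A5_S and A6_LB against 4986 and 4466 CPM in A5_L and A6_L, and the immediate-early sum is 5867 CPM in A5_S against 26583 CPM in A6_LB.

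Wnt signalling, which sustains mammary stem and basal cells, gave 9 of 20 genes higher and none lower (median log2 fold change 2.53), and 7 higher with A6_LB alone. The R-spondin receptor Lgr5 was 287 and 204 CPM against 15.5 and 10.9 CPM, a log2 rise of 4.23 ± 0.55 (edgeR adjusted p = 8.83e-05). Lgr4, its relative, was 164 and 147 CPM against 29.5 and 21.8 CPM. Among the Frizzled receptors, Fzd1 was 80.3 and 129 CPM against 13.7 and 9.57 CPM and Fzd7 327 and 389 CPM against 60.6 and 52.0 CPM. Dkk3, a secreted Dickkopf family member, was 334 and 271 CPM against 27.7 and 13.4 CPM. These 5 genes were called with A6_LB alone and whichever library was left out, while Wnt7b and the co-receptors Lrp5 and Lrp6 were not called.

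In the Notch pathway, through which neighbouring cells set luminal fate, 4 of 14 genes were higher (the ligands Dll1, Jag1 and Jag2, and Rbpj, the DNA-binding effector) and Hes1 was lower (median -0.24). With A6_LB alone 3 were higher, the same ligands, and 2 lower, the target genes Hey1 and Heyl (median 0.10). The ligand Dll1 was 142 and 90.8 CPM against 7.51 and 10.5 CPM, and Jag2 65.2 and 61.2 CPM against 4.95 and 2.30 CPM. Jag1 rose less, from 54.5 and 49.4 CPM to 130 and 175 CPM (log2 fold change 1.54 ± 0.28, edgeR adjusted p = 0.00134). Adjusted p for Jag1 was 0.0539 and for Jag2 0.0801 without A6_L, and for Dll1 0.0527 without A5_L, and all 3 were called with A6_LB alone. Hes1, a target gene of the pathway, was 15.4 and 31.9 CPM against 79.1 and 90.1 CPM (-1.89 ± 0.42, edgeR adjusted p = 0.00626), and was not called with A6_LB alone (0.0862) or without A5_S (0.0758). Notch1 and Notch2 were not called. Notch3, a receptor also found in pericytes, was 21.5 and 32.2 CPM against 142 and 96.2 CPM (-2.15 ± 0.31, edgeR adjusted p = 0.000184).

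Of 15 genes for the epithelial-mesenchymal transition 1 was higher and none lower (median 0.49), and none was called with A6_LB alone. Vim, the mesenchymal intermediate filament vimentin, was 157 and 174 CPM against 75.0 and 45.7 CPM (log2 fold change 1.46 ± 0.38, edgeR adjusted p = 0.0164), and lost its call with A6_LB alone (0.0612), without A6_LB (0.099) and without A6_L (0.257). Snai1, the relative of the deleted gene, was 5.46 and 2.11 CPM against 2.22 and 0.574 CPM, and its libraries overlapped. Zeb2 was 8.51 and 4.22 CPM against 18.6 and 18.9 CPM and was not called (-1.54 ± 0.67). Over all genes 6.55% were called higher and 4.55% lower, so 1 of 15 higher is near the share of all genes.

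At 3 months luminal-basal over luminal in null mice called 924 genes higher (5.81%) and 315 lower (1.98%). The series holds no separate basal library of null mice at that age, whereas at 12 months it holds A5_B and A6_B. Both ages shared 614 higher genes (58.9% of the 12-month list and 66.5% of the 3-month list) and 221 lower genes (30.5% and 70.2%). No gene was higher at 12 months and lower at 3, and 6 were lower at 12 and higher at 3. The contractile list had 13 of 13 higher at 3 months (median 3.70) and the hormone-sensing list 8 of 12 lower (median -2.48). Library F82_LB stood apart, with 44 Snai2 counts, a fibroblast sum of 5135 CPM against 1065 CPM in F84_LB, and Col1a1 at 380 CPM. The number called at 3 months was 660 without F82_LB, 467 without F82_L and 413 without F84_L, against 1239 (7.78%) with all 4.

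The difference between the ages was tested directly, as the 12-month minus the 3-month effect. In it 9 genes were lower (0.0565%), and none was higher by edgeR, where 351 genes had an unadjusted p under 0.05 and DESeq2 called 24. They were Esam, Tek, Igfbp4, Gpihbp1, Dlc1, Meox2, Atp1b2, Dact1 and Adh1. Tek, the angiopoietin receptor of endothelial cells, was 1.12 and 0.576 CPM in A5_S and A6_LB against 12.3 and 8.42 CPM in A5_L and A6_L, and 22.1 and 1.24 CPM in F82_LB and F84_LB against 4.08 and 1.51 CPM in F82_L and F84_L. Meox2, a homeobox factor of vessels and mesoderm, was 1.12 and 0.384 CPM against 13.5 and 5.74 CPM at 12 months, and 14.4 and 2.15 CPM against 2.55 and 0.303 CPM at 3 months. In both genes F82_LB was far above F84_LB. In the 12-month null basal libraries A5_B and A6_B, Tek was 143 and 125 CPM and Meox2 202 and 321 CPM. As null mice have that fraction at 12 months only, age and sorting cannot be told apart. No gene was called by edgeR without F82_LB, F82_L, F84_L or A5_L (678, 714, 1283 and 1214 at an unadjusted p under 0.05), and 295 were called without F84_LB. The calls were 6 without A6_L, 20 without A5_S and 27 without A6_LB. With A6_LB alone 16 were called, 3 of the 9 among them.

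Against wild-type basal over luminal at 12 months, which called 1049 genes higher (6.59%) and 146 lower (0.917%), the null comparison shared 604 higher genes (58.0% of the null list and 57.6% of the wild-type list) and 103 lower genes (14.2% and 70.5%). The 2 comparisons have no library in common. The tested difference, null minus wild type, gave 144 genes lower (0.905%) and 6 higher (0.0377%). Of the 144, 123 were higher in wild-type basal cells, 60 were lower in null luminal-basal cells, and 56 were called with A6_LB alone. The count of 150 (0.942%) fell to 25 without A2_L, 45 without A2_B or A5_L, 67 without A1_B, 73 without A6_L and 85 without A1_L, and was 133 without A5_S and 125 without A6_LB.

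Of 11 endothelial genes 9 were lower in the tested difference. In the null comparison 5 of 11 were lower and none higher (median log2 fold change -2.65; 4 lower with A6_LB alone), and in wild type 9 were higher (median 3.29). Esam, an adhesion molecule of endothelial junctions, was 0.321 and 0.192 CPM in A5_S and A6_LB, 8.03 and 6.12 CPM in A5_L and A6_L, 21.7 and 33.3 CPM in A1_B and A2_B, and 2.51 and 1.49 CPM in A1_L and A2_L. Its difference was -8.39 ± 0.88 (edgeR adjusted p = 8.4e-05). Emcn, endomucin, was 2.89 and 0.576 CPM against 16.7 and 9.37 CPM in null, and 49.2 and 65.0 CPM against 5.60 and 1.67 CPM in wild type (difference -6.94 ± 0.82, edgeR adjusted p = 0.000233). Esam, Emcn and Tek were called in this difference with A6_LB alone and whichever of the 8 libraries was left out. Pecam1 (CD31) was 7.87 CPM in A5_S but 40.3 CPM in A6_LB, against 43.0 and 33.9 CPM, and was not called within null (-0.79 ± 0.56).

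The endothelial list summed to 43.2 and 103 CPM in A5_S and A6_LB, 247 and 146 CPM in A5_L and A6_L, 638 and 832 CPM in A1_B and A2_B, and 98.6 and 74.1 CPM in A1_L and A2_L. The null gland has a basal fraction of its own at 12 months, and its libraries A5_B and A6_B held 3450 and 3551 CPM of the same list, with Krt5 at 33.7 and 36.5 CPM. The pericyte list summed to 5296 and 5954 CPM there, against 253 and 261 CPM in A5_S and A6_LB. Wild-type basal cells were sorted as 1 fraction where the null gland gave 2, and how the gates divided the cells was not tested.

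**Figure D5:**
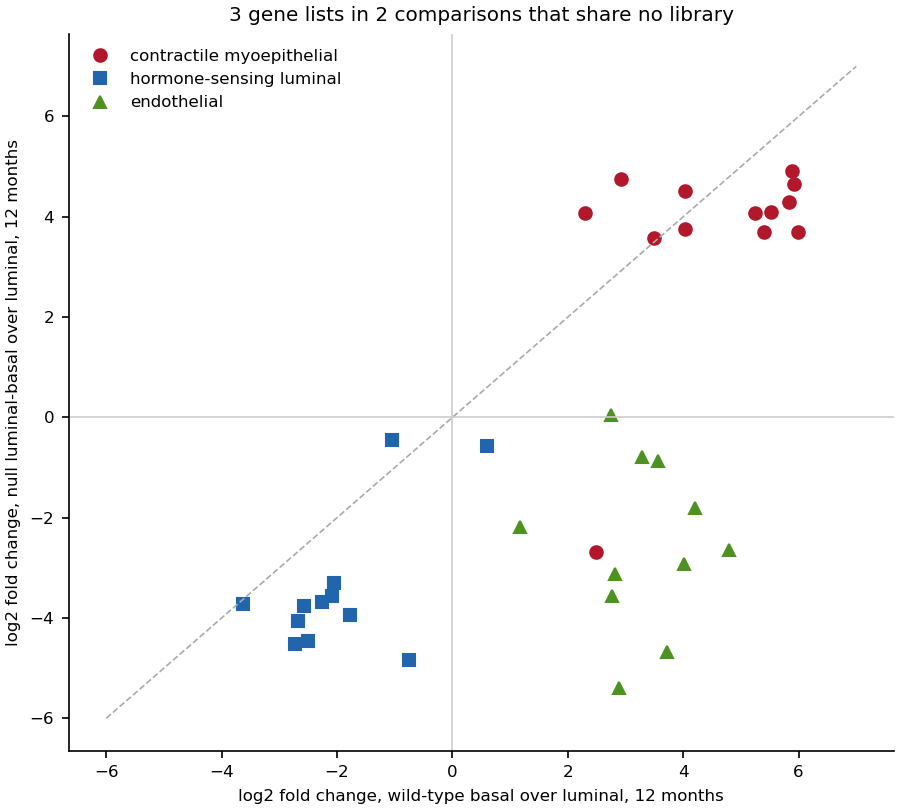
Fitted log2 fold change in null 12-month luminal-basal over luminal (vertical) against wild-type 12-month basal over luminal (horizontal) for the members of 3 lists, with the dashed line at equality. The contractile genes other than Des lie at the upper right and the endothelial genes at the lower right, below 0 or near it in null and above 0 in wild type.

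The 6 genes higher in the tested difference were Mgst1, Tnip1, Ppp1r9a, Chrnb1, Eml5 and the unnamed model RP23-167C5.1. Ppp1r9a, neurabin, a scaffold of the actin cytoskeleton, was 114 and 137 CPM against 59.3 and 45.3 CPM in null, and 24.2 and 13.8 CPM against 67.4 and 56.1 CPM in wild type (difference 2.96 ± 0.52, edgeR adjusted p = 0.00797). Its libraries did not overlap in either comparison, with luminal-basal above luminal in null and basal below luminal in wild type. Within null, edgeR's adjusted p of 0.0356 became 0.154 with A6_LB alone, 0.111 without A5_S, 0.084 without A6_LB and 0.405 without A6_L. The wild-type call was lost without A1_L, A2_B or A2_L. The call of the difference was lost without A2_B and without A2_L, and held with A6_LB alone (adjusted p = 0.0337).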

How the data were processed

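The deposited counts, whole numbers per gene for 45706 genes in 26 libraries, came per the submitters' processing notes from alignment to GRCm38 with TopHat2 2.0.13 and counting with HTSeq, with version and strand setting not given in the sources used here. Per the labels' protocols, amplification used the NuGEN Ovation V2 system, so levels are not compared between genes. Positions are from GENCODE vM21, which matched 45143 genes.

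Genes were filtered with filterByExpr by group (minimum count 10, total 15; 15917 left), scaled by TMM and fitted in edgeR 4.0.16 (robust quasi-likelihood, R 4.3.3) over all 26 libraries in 13 groups, with the pool as a block. All groups share 1 estimate of spread. A call is a Benjamini-Hochberg adjusted p under 0.05, adjusted per comparison. With A6_LB alone, that library is assumed to vary like the other groups, and 17234 genes passed the filter. Calls of genes that passed the filter in only 1 of the 2 fits count as not shared between them. CPM are TMM-scaled. The fit was also run on simulated counts drawn from its own means and spread, which checks neither that spread nor the A5 exchange.

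Libraries of 1 pool share mice, hence the pairing. After subtracting group means, libraries of 1 pool correlated at r = 0.00279 to 0.300, above 0.1 in 8 of 15 pairs. The pair compared here, A5_S and A5_L, lay below that mark at 0.0593, while A5_LB and A5_L correlated at 0.150. The A5 exchange, the genes and the lists were chosen with earlier results of these data known, and the basal calls that include A5_S are not independent of that choice. Genes named were the 8 largest rises and falls among called genes without overlap and with 10 CPM or more in the higher group, up to 4 per list, the 5 smallest p each way in the differences, and Krt5, Krt14, Krt8, Krt18, Trp63, Col1a1, Snai1 and Snai2. Des, Prlr, Esr1, Pgr, Epcam, Cdh1, Csn2, Pecam1, Adh1, Ly6a, Krt6a, Fzd7, Zeb2 and Tcf4 were added after their values were seen. Alternatives were RLE normalisation, no filter, DESeq2 1.42.0, fewer libraries, the deposited labels, no block and each library left out. Intervals and floors cover counting error only.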

Additional observations from a re-analysis of the deposited data

Results flagged for a closer look

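In 33 cases a named gene's effect differed between 2 comparisons by the test of the difference itself (edgeR, Benjamini-Hochberg adjusted over 15917 genes). For the 12-month minus the 3-month effect in null mice these were Esam (-6.26 on the log2 scale), Tek (-5.17), Dact1 (-4.32), Dlc1 (-3.46), Igfbp4 (-2.67), Atp1b2 (-4.66), Gpihbp1 (-7.73), Meox2 (-5.96) and Adh1 (-7.24). All 9 lost the call without F82_LB, F82_L, F84_L or A5_L. With A6_LB alone Igfbp4, Meox2 and Adh1 were called (adjusted p = 0.0315, 0.043 and 0.043).

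For null minus wild type at 12 months, endothelial genes gave Esam -8.39, Tek -6.31, Vwf -3.36, Emcn -6.94 and Pecam1 -4.08. Genes named by their p gave Gpihbp1 -12.07, Pde2a -6.82, S1pr1 -6.96 and Meox2 -8.19. Gpihbp1 had 0 counts in A5_S and A6_LB, so its fitted value depends on the prior count and is no bound. Against a floor of 3 counts over the group it was at least 15.5-fold lower than in null luminal cells. Further values were Dact1 -2.71, Dlc1 -3.84, Igfbp4 -3.00, Atp1b2 -3.41, Adh1 -6.37, Des -5.16 and Ly6a -4.09. With A6_LB alone Pecam1 (edgeR adjusted p = 0.0543), Dact1 (0.153), Atp1b2 (0.0931) and Ly6a (0.18) were not called. Dact1 and Ly6a lost the call whichever of the 8 libraries was left out, Pecam1 and Atp1b2 for 6 of the 8, Des for 5, Vwf for 4 and Igfbp4 without A2_L.

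Genes of the epithelial-mesenchymal transition gave Vim -2.45, Zeb2 -4.68 and Tcf4 -1.44. Those 3 were not called with A6_LB alone (adjusted p = 0.151, 0.151 and 0.117), and Zeb2 and Tcf4 lost the call whichever library was left out, Vim for 5 of 8. Higher in null were Ppp1r9a (2.96), Chrnb1 (3.20), Tnip1 (2.55), Eml5 (2.33) and Mgst1 (1.79). Tnip1 and Eml5 were not called with A6_LB alone (edgeR adjusted p = 0.0637 and 0.0592). Leaving out 1 library lost the call of Tnip1, Eml5 and Mgst1 for 7 of 8, of Chrnb1 for 6 and of Ppp1r9a for 2.

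Esam, Tek, Emcn, Gpihbp1, Pde2a, S1pr1, Meox2, Dlc1 and Adh1 were called against wild type whichever of the 8 libraries was left out and with A6_LB alone.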

How the results depend on the processing

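Genes were recounted under each alternative. For null luminal-basal over luminal at 12 months (1766 genes), the deposited labels gave 304, the null 12-month libraries alone 782 and the 4 libraries alone, without the block, 811, and leaving out 1 library 649 to 1841. Without the replicate block the count was 1671. At 3 months (1239), no low-count filter gave 1904, the deposited labels 393, and leaving out 1 library 413 to 1071. In wild type (1195), the deposited labels gave 362, which changes only the shared spread and filter there, and leaving out 1 library 370 to 561. For 12 minus 3 months (9), no block gave 5, RLE 4, no filter 383, DESeq2 124, the deposited labels 0 (530 at an unadjusted p under 0.05), A6_LB alone 16, and leaving out 1 library 0 to 295. For null minus wild type (150), no filter gave 581, DESeq2 386, the deposited labels 0 (503 unadjusted), and leaving out 1 library 25 to 133. Under the deposited labels the log2 value turned positive at 12 months for Tek (0.83), Lpl (2.76), S1pr1 (0.11), Meox2 (0.43), Des (1.49), Adh1 (2.46) and Ly6a (0.24), for Dlc1 between ages (0.04), and against wild type for Dact1 (0.45), Adh1 (0.48), Ly6a (0.99) and Zeb2 (0.23). Under those labels A5_LB stands for luminal-basal, and each of these genes was higher in A5_LB than in A5_S. Lpl was 287 against 4.17 CPM, Adh1 75.5 against 0.482 CPM, Zeb2 359 against 8.51 CPM and Ly6a 248 against 4.49 CPM. The cause was not tested.

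Of 87 named genes called at 12 months, 66 were called with A6_LB alone, 74 without the block, 85 by DESeq2, 87 with RLE and 53 whichever library was left out. The 21 lost with A6_LB alone were Atf3, Btn1a1, Col5a1, Des, Dpep2, Erbb3, Hes1, Hpse2, Igfbp5, Jun, Krt14, Krt17, Krt5, Krt8, Lpl, Ltf, Mki67, Ppp1r9a, Trp53, Trp63 and Vim. The 13 lost without the block were Dsg3, Dpep2, Igha, Calca, Btn1a1, Lpl, Erbb3, Mki67, Trp53, Jun, Atf3, Nr4a1 and Des (edgeR adjusted p = 0.0579 to 0.559). Under the deposited labels 8 of the 87 kept the call, 72 lost it and 7 changed sign. Under every alternative 8 of the 87 kept it. A6_LB alone without the block, an alternative chosen after seeing the data, gave 1767 genes. Genes at a few counts per library are limited by depth: 3 counts are 0.482 CPM in A5_S and 0.576 CPM in A6_LB.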

Other observations

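Cell-cycle genes gave 1 call of 16, near the share of all genes called higher (6.55%). The 16 proliferation genes summed to 216 CPM in A5_S, 714 CPM in A6_LB, 195 CPM in A5_L and 313 CPM in A6_L, so A6_LB was the highest. In 6 of the 16 both luminal-basal libraries lay above both luminal ones, as in 22.3% of all genes, and in none below. With A6_LB alone none was called (median log2 fold change 1.21). Mki67, the marker of cycling cells, was 47.4 and 295 CPM in A5_S and A6_LB against 7.34 and 88.4 CPM in A5_L and A6_L. It was the 1 gene of 16 called (log2 fold change 2.18 ± 0.67, edgeR adjusted p = 0.0438), and was not called when any of the 4 libraries was left out (adjusted p = 0.201 to 0.377), with A6_LB alone (0.22) or without the replicate block (0.559).

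Immediate-early and stress genes, which respond within minutes to handling of tissue, gave 1 higher and 2 lower of 15, and 1 higher and none lower with A6_LB alone. Over all genes 6.55% were called higher and 4.55% lower, so 1 of 15 higher is near the share of all genes. The sum of the 15 genes was 5867 CPM in A5_S, 26583 CPM in A6_LB, 20245 CPM in A5_L and 32569 CPM in A6_L, and A5_S was the lowest of the 4. Jun was 229 CPM in A5_S but 2087 CPM in A6_LB, against 2609 and 5358 CPM. Its call (log2 fold change -2.06 ± 0.60, edgeR adjusted p = 0.0344) was lost with A6_LB alone (0.21), without A5_L (0.157), without A5_S (0.211) and without A6_L (0.328). Nr4a1 went the other way, at 236 and 494 CPM against 150 and 189 CPM (1.07 ± 0.33, edgeR adjusted p = 0.0439), and was called with A6_LB alone (0.0235) but not without A6_LB (0.581), A5_L (0.231) or A6_L (0.233).

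Of 11 senescence-associated genes 3 were higher and none lower (median log2 fold change 0.89, and 0.87 with A6_LB alone). Igfbp3, an insulin-like growth factor binding protein, was 191 and 180 CPM against 18.1 and 15.9 CPM (3.46 ± 0.49, edgeR adjusted p = 0.000184), and was called with A6_LB alone. Igfbp5, which rises in involution, was 4335 and 2018 CPM against 1704 and 1007 CPM, and Trp53 130 and 178 CPM against 75.3 and 89.3 CPM. Neither of these was called with A6_LB alone (edgeR adjusted p = 0.109 and 0.115). Igfbp5 also lost its call without A5_L (0.0898), A5_S (0.151) and A6_L (0.131), and Trp53 when any of the 4 libraries was left out (0.0704 to 0.239).

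Markers of other cell types were also counted within null at 12 months. Of 7 adipocyte genes 1 was lower, the lipase Lpl (edgeR adjusted p = 0.0445), and of 6 Schwann cell genes 1, the receptor Erbb3 (edgeR adjusted p = 0.0205). Neither was called with A6_LB alone (0.295 and 0.181). Of 10 immune genes none was called by edgeR or DESeq2, with 2 lower at an unadjusted p under 0.05 in edgeR. Of 9 skeletal muscle genes none was called by either, with 1 lower at an unadjusted p under 0.05. Of 12 protein-coding genes of the mitochondrial genome none was called by either tool and none had an unadjusted p under 0.05 in edgeR. Mcam (CD146), listed with pericytes and also made by myoepithelium, was 203 and 105 CPM against 12.3 and 9.76 CPM (3.80 ± 0.67, edgeR adjusted p = 0.00114). Erbb3, listed with Schwann cells, was 52.3 and 72.2 CPM in A5_S and A6_LB against 207 and 154 CPM in A5_L and A6_L. It was 98.6 and 140 CPM in A1_L and A2_L, and 58.5 and 41.0 CPM in A5_LB and A6_S. Within each genotype at 12 months the luminal libraries were the highest, so Erbb3 was not particular to Schwann cells.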
